A study of Homo sapiens with 6 samples.

Results

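The cancer-testis and germline genes are 40 named genes whose transcripts are normally found in testis or in germ cells, and 34 of them were measured by a probe set that names no other gene, of 18417 genes measured that way. Members were found by gene symbol, and a gene with more than 1 probe set kept the probe set of highest mean intensity over all 6 arrays. MAGEA3, MAGEB1, MAGEB4, GAGE1 and SOHLH2 (5 genes) were on the array only in probe sets that also name other genes, and BAGE was on none of the probe sets whose genes are listed. The 40 were chosen by name, with SSX1 and SSX6P selected on their higher intensity in the knockdown arrays than in control, so the differences of those 2 genes are given as a description with no test.

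The data are microarray intensities from MDA-MB231, a human cell line from a metastatic breast cancer, on a log2 scale. There were 3 arrays of 1 MDA-MB231 clone with a stable knockdown of G9a, labelled less metastatic, and 3 arrays of parental MDA-MB231 cells with no treatment, labelled control. The knockdown reagent is not given in the sources used here, and since 1 clone was set against the parental cells, effects of the knockdown and of cloning cannot be told apart. The labels do not say whether the replicates were separate cultures, and the p-values therefore reflect the spread between these arrays alone, part or all of which may be technical.

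Cancer-testis genes are silent in most adult tissues outside the testis and are switched on in many tumours. Many of them lie on the X chromosome in families of near-identical copies, and loss of promoter DNA methylation is the best known way in which they become active. G9a is the product of EHMT2 and adds methyl groups to lysine 9 of histone H3, a repressive mark, and in mouse embryonic stem cells it takes part in silencing germline genes.

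The promoters of SSX1, MAGEC1 and MAGEC2, all among the 5 highest differences here, and of SSX5, a close copy of SSX1, are shown because SSX and MAGEC genes belong to families of copies. Each run is the 250 bases before the annotated start, read in the direction of the gene, from RefSeq (GRCh38.p14), and CpG dinucleotides, the sites of DNA methylation, are in capitals. The windows are chrX:48255142-48255391 on the plus strand for SSX1, chrX:48196796-48197045 on the minus strand for SSX5, chrX:141903644-141903893 on the plus strand for MAGEC1 and chrX:142205291-142205540 on the minus strand for MAGEC2.
SSX1: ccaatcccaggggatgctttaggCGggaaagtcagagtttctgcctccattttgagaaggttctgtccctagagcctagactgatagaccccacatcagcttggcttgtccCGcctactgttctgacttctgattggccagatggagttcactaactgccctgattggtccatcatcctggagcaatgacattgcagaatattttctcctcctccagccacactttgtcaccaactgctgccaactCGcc
SSX5: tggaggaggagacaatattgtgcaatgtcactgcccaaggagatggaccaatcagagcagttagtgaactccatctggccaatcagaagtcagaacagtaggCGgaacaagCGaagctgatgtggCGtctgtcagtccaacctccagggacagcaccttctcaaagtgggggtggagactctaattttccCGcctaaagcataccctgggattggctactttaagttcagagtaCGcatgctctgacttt
MAGEC1: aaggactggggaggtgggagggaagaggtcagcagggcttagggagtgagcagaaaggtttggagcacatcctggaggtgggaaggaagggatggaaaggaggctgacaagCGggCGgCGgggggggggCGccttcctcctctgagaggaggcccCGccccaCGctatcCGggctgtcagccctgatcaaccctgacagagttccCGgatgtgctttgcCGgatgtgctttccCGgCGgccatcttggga
MAGEC2: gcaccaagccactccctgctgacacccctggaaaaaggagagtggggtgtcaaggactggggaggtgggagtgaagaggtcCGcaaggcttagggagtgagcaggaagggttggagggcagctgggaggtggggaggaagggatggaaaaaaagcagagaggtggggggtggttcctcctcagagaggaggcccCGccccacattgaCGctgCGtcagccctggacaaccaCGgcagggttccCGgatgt
The SSX1 and SSX5 windows had 3 and 5 CpG dinucleotides, and those of MAGEC1 and MAGEC2 had 11 and 6, where the median over all 35116 RefSeq windows was 11. The SSX1 window matched that of SSX5 at 88.9% of 216 aligned columns, but only with one of them read as its reverse complement, and the same held for SSX1 against SSX2, SSX4 and SSX7. The windows of SSX5, SSX2, SSX4 and SSX7 matched each other in the same direction, at 88.4% to 92.8% of aligned columns. The direction of the SSX1 window was taken from the table and was not checked against a genome. The MAGEC1 and MAGEC2 windows matched at 78.8% of 212 aligned columns in the same direction.

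Of the 40 genes, 31 had at least 1 such window. The letters TCCCGC, the core of an E2F site, were found on either strand in the windows of 9 of the 31 genes (29.0%), against 27.0% of all 27305 genes with a window. The 9 were SSX1, SSX5, GAGE1, PAGE4, DAZL, SYCP3, STAG3, PIWIL1 and SPO11. The palindrome CACGTG, an E-box, was found in 7 of the 31 (22.6%), against 7.73% of all genes. Those 7 were PAGE1, PAGE4, DAZL, TDRD1, STAG3, MAEL and BRDT, and neither SSX1 nor a MAGEC gene was among them. Both motifs were chosen after the values were seen. Each was searched on its own, so matches could overlap by a letter, and a match describes the letters of the window only.

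The targeted gene was checked first. EHMT2 had 2 single-gene probe sets, and only the brighter is given here. On it EHMT2 read 9.66, 9.59 and 9.51 in the knockdown arrays and 10.21, 10.27 and 9.93 in the control arrays, a difference of -0.55 ± 0.10 (SE; limma, adjusted p = 0.0259). It remained negative with any array left out, but missed the threshold in 5 of those 6 fits, with an adjusted p of up to 0.122. Of the markers fixed for MDA-MB231, those listed as high were bright, with VIM, CD44, AXL, CAV1, MSN, KRT8 and KRT18 at the 96.5 percentile of mean intensity or above. Of those listed as low, the hormone receptor genes ESR1 and PGR lay at the 21.5 and 7.42 percentiles and CDH1, the epithelial cadherin gene, at 31.0. ERBB2 and EPCAM, also listed as low, lay at the 68.8 and 54.2 percentiles. CDH1 read 7.62, 7.58 and 7.64 in the knockdown and 7.10, 7.10 and 7.28 in control, higher in the knockdown by 0.45 ± 0.07 (SE; limma, adjusted p = 0.0177), but missed the threshold without any 1 array other than control replicate 3 (0.0525 to 0.0983). The germ cell markers SYCP3, DDX4, DAZL, TNP1 and PRM1 were all dim, at the 0.817, 5.33, 11.8, 19.9 and 24.9 percentiles, and none passed the test. Their mean log2 intensity over the 5 genes was 5.64 to 5.87 in the knockdown arrays and 5.68 to 5.81 in the control arrays.

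Of 20 measured markers of other cell types, germ cells included, 1 was called higher (limma) and none lower, beside 1.28% and 1.78% of all genes. An unadjusted p under 0.05 was found for 5 of the 20, against 19.4% of all genes. The 1 called was the endothelial cadherin gene CDH5, which read 8.32, 8.17 and 8.03 in the knockdown and 7.24, 7.46 and 7.67 in control, a difference of 0.71 ± 0.12 (SE; limma, adjusted p = 0.0210). It missed the threshold without control replicate 2 or any 1 knockdown array (0.0615 to 0.0869). Over the 7 markers of fibroblasts and endothelium the mean log2 intensity was 7.41 to 7.50 in the knockdown arrays and 7.09 to 7.34 in the control arrays, without overlap. Of these, CDH5 and PECAM1 each had all knockdown values above control. PECAM1 was at 0.42 ± 0.10 (SE; limma, adjusted p = 0.0591), and DCN was at -0.05. The groups overlapped over 4 leukocyte markers of 5 listed, at 7.79 to 7.87 in the knockdown and 7.74 to 7.81 in control. They also overlapped over 4 Sertoli and Leydig cell markers, at 7.24 to 7.42 in the knockdown and 7.18 to 7.29 in control. The part of these markers in the differences of the cancer-testis genes was not tested.

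Most of the 34 genes were dim on these arrays. The lowest 1 in 3 genes by mean intensity, called dim genes here, reached up to a log2 intensity of 7.53, and 28 of the 34 genes were among them. No detection call was used, so a dim value was not separated from background. The 6 genes above that edge were SSX1, SSX6P, CTAG2, MAGEA8, CTCFL and TDRKH. SSX1 stood at the 90.3 percentile of all genes, CTAG2, MAGEA8, CTCFL and TDRKH between the 51.2 and 59.97 percentiles, and SSX6P just above the edge at 33.7. Percentiles place each probe set among all probe sets, and since probes differ in brightness they do not rank the genes by transcript amount. In RNA pooled from many cells, more cells with a transcript and more transcript per cell cannot be told apart.

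**Figure D1:**
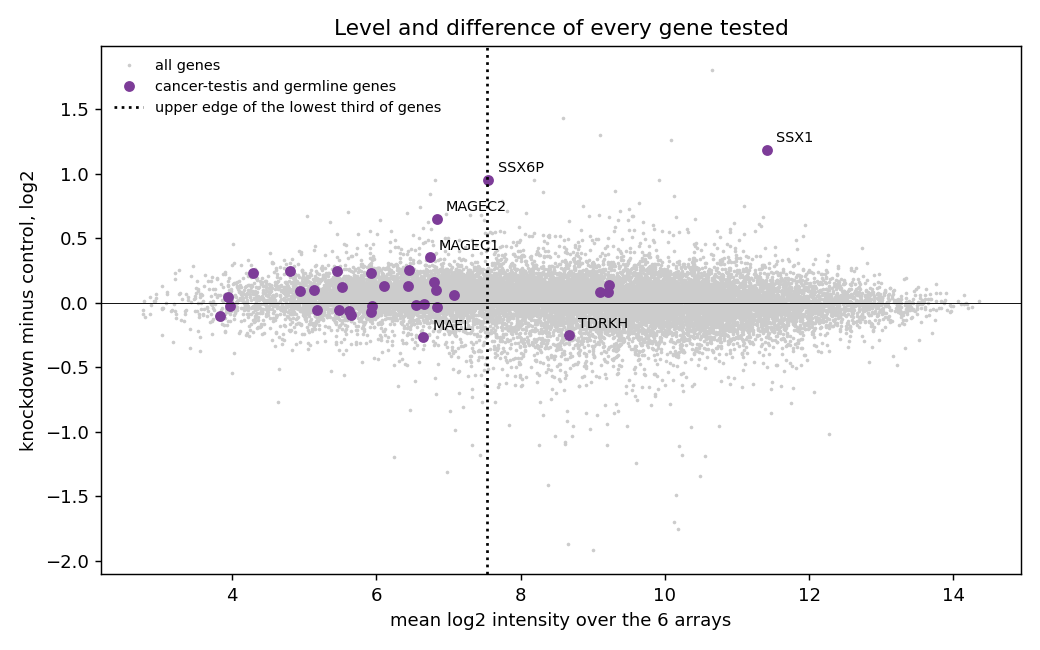
Each grey point is 1 of 18417 genes and each purple point 1 of the 34 cancer-testis and germline genes, with mean log2 intensity over the 6 arrays on the x axis and knockdown minus control on the log2 scale on the y axis. The dotted line is the upper edge of the dim genes, at 7.53, and 28 of the purple points lie left of it, with SSX1 far to the right.

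SSX proteins are nuclear repressors best known from their fusion to SS18 in synovial sarcoma. SSX1 read 11.95, 12.00 and 12.07 in the knockdown arrays, against 10.84, 10.82 and 10.79 in the control arrays. The groups were far apart, and the transcript was already bright in the parental cells. Its mean was 12.00 ± 0.06 in the knockdown and 10.82 ± 0.02 in control (SD, n = 3 each), a difference of 1.19 ± 0.06 (SE), and it ranged from 1.15 to 1.21 with 1 array left out. SSX6P, which RefSeq lists as a transcribed pseudogene, read 7.95, 8.001 and 8.15 in the knockdown and 7.16, 6.95 and 7.13 in control. The groups did not overlap, with control values below the edge of the dim genes and knockdown values above it, and the difference was 0.95 ± 0.08 (SE).

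The other chosen SSX genes measured singly, SSX3 and SSX5, were dim in both groups. SSX3 read 5.75, 5.59 and 5.41 in the knockdown and 5.43, 5.28 and 5.29 in control, a difference of 0.25 ± 0.09 (SE; limma, adjusted p = 0.198). SSX5 read 4.93, 5.12 and 4.74 in the knockdown and 4.75, 4.62 and 4.68 in control, a difference of 0.24 ± 0.10 (SE; limma, adjusted p = 0.218). In both genes 1 knockdown array lay inside the control range and neither passed the test. SSX7, measured singly but only in the wider list below, was also dim by its mean over the arrays. It read 7.58, 6.90 and 7.06 in the knockdown and 7.13, 7.14 and 7.45 in control, with overlap. The difference of SSX7 was -0.06 ± 0.17 (SE; limma, adjusted p = 0.869).

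A further 4 probe sets name 10 or 11 SSX genes at a time, SSX1, SSX3, SSX5 and SSX6P among them, and were outside the rule. They read 7.40 to 7.77 in the knockdown arrays and 6.52 to 6.79 in the control arrays, with no overlap in any of the 4. Their differences were 0.87 to 1.04, close to that of SSX6P, and their mean levels lay at the 25.4 to 28.2 percentiles. Close SSX copies can share signal on a probe set, so which SSX gene gave the signal of SSX6P and of the shared probe sets was not tested.

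**Figure D2:**
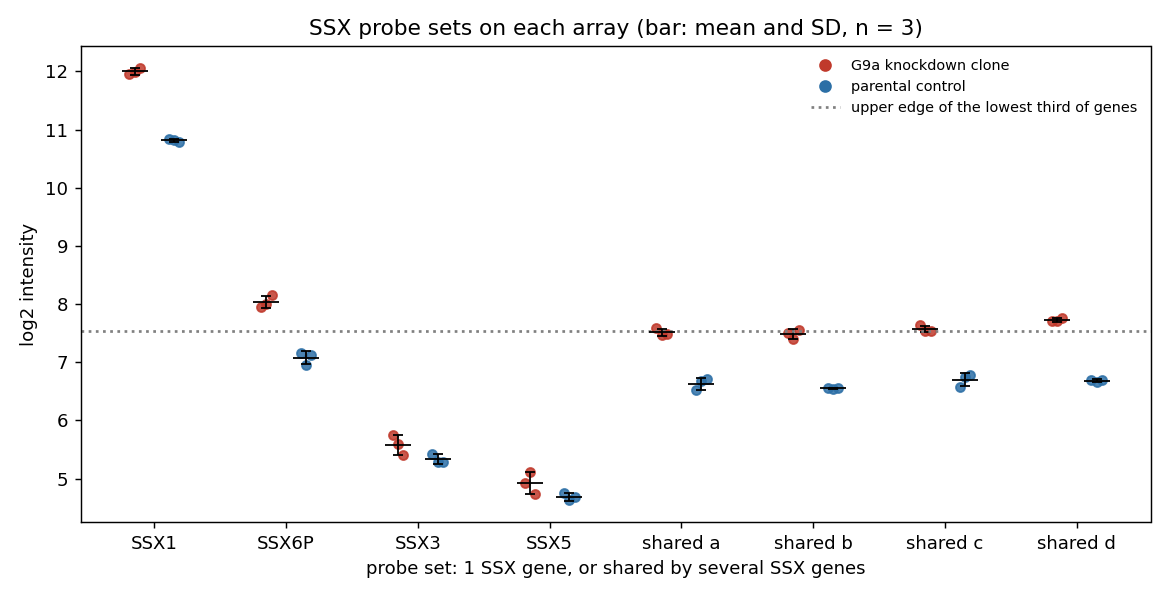
Log2 intensity of 8 SSX probe sets on each array, with the knockdown clone in red left of the control in blue, bars for mean and SD (n = 3), and the dotted line at the edge of the dim genes. The first 4 probe sets name 1 gene and the last 4 name 10 or 11 SSX genes. SSX1, SSX6P and the 4 shared sets do not overlap between the groups, while SSX3 and SSX5 do.

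SSX6P, SSX5, SSX1 and SSX3 follow each other on the X chromosome in the order of genes tested. Of the 8 tested genes on each side of SSX1, 13 were not SSX genes, and their differences ran from -0.14 to 0.16 with a median of -0.04. None of the 13 passed the test (limma), with 0 at an unadjusted p under 0.05. Of the 13, 3 were dim, and ELK1 was the 1 gene whose knockdown values all lay above control. In EBP (-0.09) and TBC1D25 (-0.14) they all lay below control. Over all genes the shares were 14.3% above and 12.7% below. The nearest on either side, ZNF630 and SLC38A5, had differences of 0.07 ± 0.07 and 0.14 ± 0.10 (SE).

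MAGE proteins share a domain through which many of them bind RING-type ubiquitin ligases. Among the 9 chosen MAGE genes measured singly, the 3 with the highest differences were the neighbours MAGEC1, MAGEC2 and MAGEC3. MAGEC2, known to bind the corepressor TRIM28, read 7.18, 7.04 and 7.27 in the knockdown arrays and 6.21, 6.43 and 6.89 in the control arrays. Control replicate 3 lay nearest to the knockdown, and the groups did not overlap. The difference was 0.65 ± 0.16 (SE; limma, adjusted p = 0.0674), which missed the threshold, while leaving out control replicate 3 gave 0.84 with an adjusted p of 0.0138 (limma). It also passed with a variance trend (0.0347) and with array weights (0.00189). Those weights were 0.41, 0.87 and 2.05 for knockdown replicates 1, 2 and 3 and 1.03, 4.83 and 0.27 for control replicates 1, 2 and 3. The weighted fit therefore leaned on knockdown replicate 3 and, above all, on control replicate 2.

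MAGEC1 read 6.99, 6.86 and 6.91 in the knockdown and 6.42, 6.65 and 6.63 in control, a difference of 0.35 ± 0.08 (SE; limma, adjusted p = 0.0563). MAGEC3 read 6.66, 6.49 and 6.60 in the knockdown and 6.40, 6.11 and 6.47 in control, a difference of 0.26 ± 0.10 (SE; limma, adjusted p = 0.206). Neither pair of groups overlapped, though all 3 MAGEC genes were dim and none passed the test. With array weights, a fit that called 18.1% of all genes and 13.7% of the dim genes, MAGEC1 (adjusted p = 0.0203) and MAGEC3 (0.0164) passed. Among the 6139 dim genes, 10 had a difference of at least that of MAGEC2, 80 at least that of MAGEC1 and 246 at least that of MAGEC3, each count including the gene itself.

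The other 16 tested genes in the stretch from 8 before to 8 after the MAGEC genes, a stretch chosen after the values were seen, had differences of -0.38 to 0.21 with a median of 0.05. The lowest was SPANXB1, a sperm protein gene that is itself a cancer-testis gene but not among the 40. It was bright, with 11.84, 12.05 and 12.01 in the knockdown and 12.32, 12.31 and 12.42 in control, and lower in the knockdown by -0.38 ± 0.07 (SE; limma, adjusted p = 0.0357). It was the 1 gene of the 16 to pass, and it missed the threshold with any 1 array left out (0.0666 to 0.122).

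**Figure D3:**
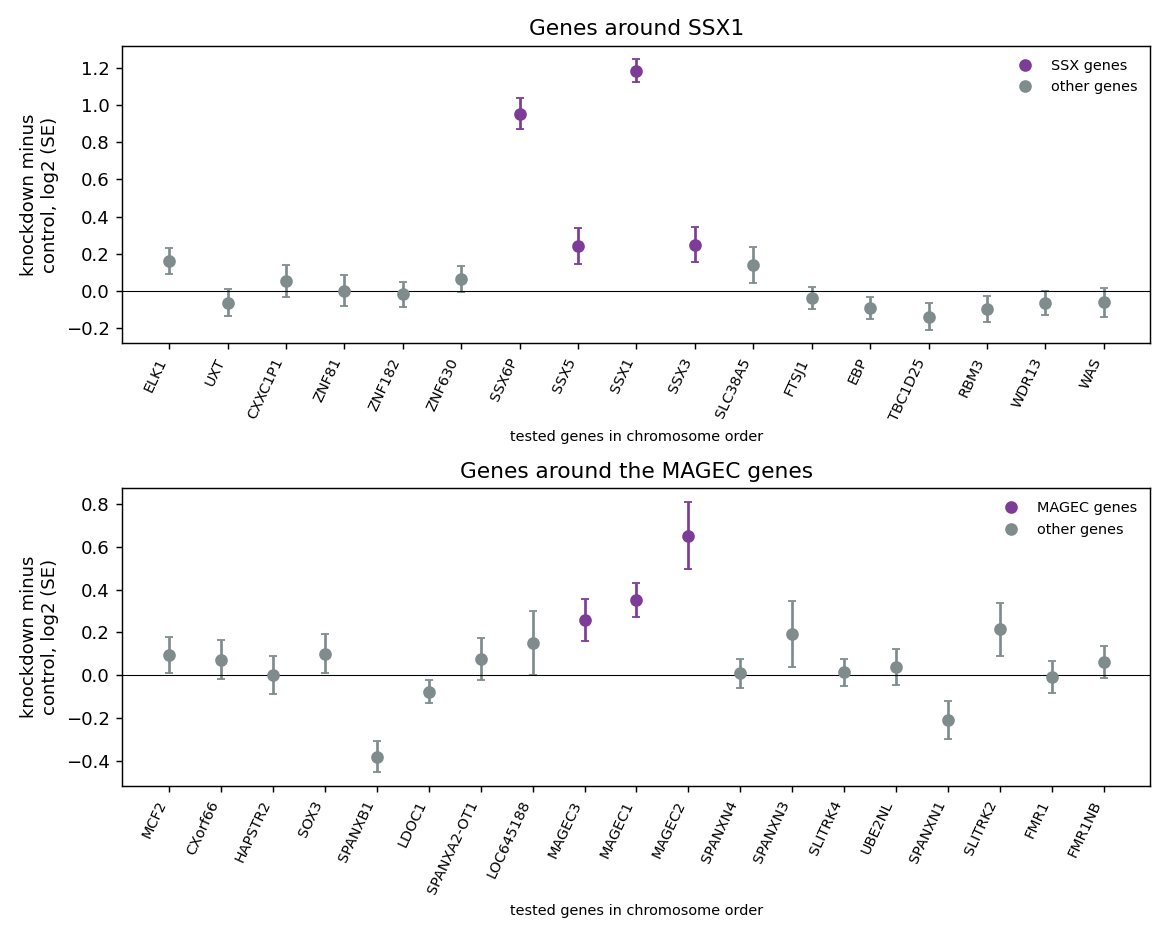
Knockdown minus control in log2 units with SE from limma for tested genes in chromosome order, around SSX1 (top) and around the MAGEC genes (bottom), with SSX and MAGEC genes in purple and others in grey. The 13 other genes around SSX1 lie between -0.14 and 0.16, and the 16 others around the MAGEC genes between -0.38 and 0.21.

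The other 6 chosen MAGE genes measured singly had differences from -0.01 to 0.16. MAGEA1 was the 1 of them whose groups did not overlap, with 6.81, 6.77 and 7.06 in the knockdown and 6.62, 6.77 and 6.77 in control, a gap of less than 0.01 between the nearest values (limma, adjusted p = 0.372). MAGEA8 was the 1 chosen MAGE gene measured singly that was not dim. It read 9.44, 9.03 and 9.28 in the knockdown and 9.13, 9.08 and 9.27 in control. Its knockdown arrays spanned the control range on both sides. MAGEA11, a coregulator of the androgen receptor, was at 0.10 ± 0.10, MAGEA4 at 0.13 ± 0.12, MAGEB2 at 0.06 ± 0.14 and MAGEA10 at -0.01 ± 0.12 (SE). With single arrays left out MAGEA10 reached 0.06, MAGEB2 -0.04, MAGEA8 -0.0085 and MAGEA11 -6.5e-04, so their signs were not stable. Further MAGE genes measured singly, in the wider list below, were MAGEB3, MAGEB6, MAGEB10, MAGEB16, MAGEB17 and MAGEB18, all dim. MAGEB16 read 5.86, 5.69 and 5.71 in the knockdown and 5.40, 5.63 and 5.47 in control, without overlap. Its difference was 0.25 ± 0.08 (SE; limma, adjusted p = 0.135), near that of MAGEC3. The others overlapped, at 0.21 for MAGEB17, 0.08 for MAGEB10, 0.01 for MAGEB3, -0.06 for MAGEB18 and -0.08 for MAGEB6, and none passed.

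MAGEA3 was read by 2 probe sets that it shares with MAGEA6, and both lay lower in the knockdown. The brighter of the pair read 8.66, 8.27 and 8.42 in the knockdown and 8.46, 8.48 and 8.76 in control, with overlap. The dimmer read 8.03, 7.77 and 7.88 in the knockdown and 8.08, 8.10 and 8.23 in control, without overlap, a difference of -0.24. MAGEB1 and MAGEB4 share 1 probe set, which read 6.87, 6.68 and 6.77 in the knockdown and 6.54, 6.56 and 6.66 in control. These values carry no test because the probe sets name more than 1 gene.

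**Figure D4:**
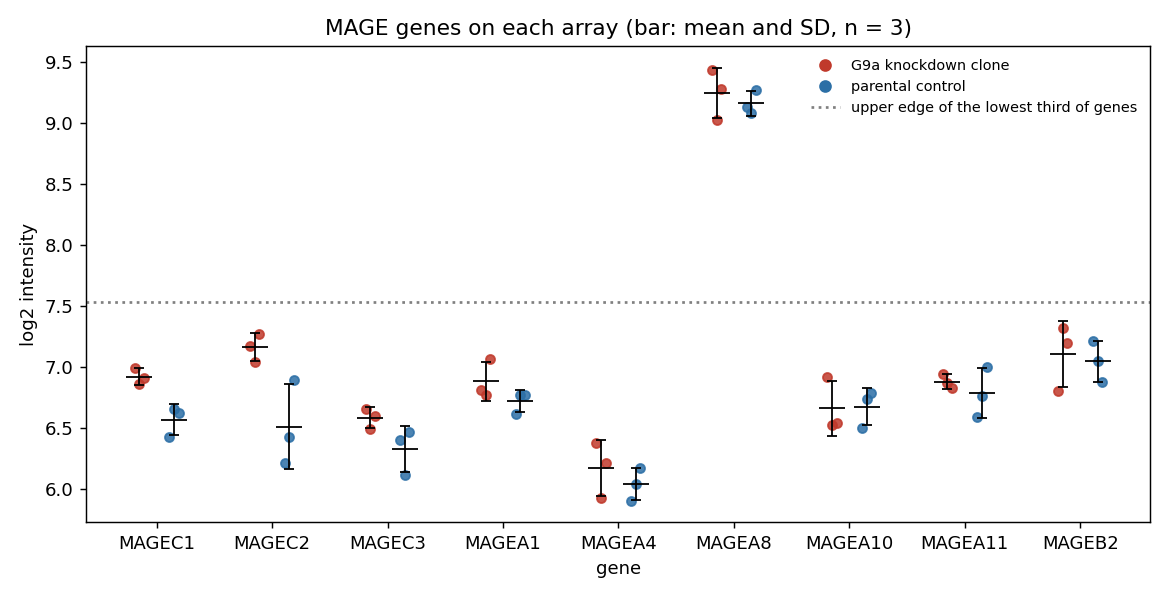
Log2 intensity of the 9 chosen MAGE genes measured singly on each array, with the knockdown clone in red left of the control in blue. Bars give mean and SD (n = 3), and the dotted line is the edge of the dim genes. Only MAGEA8 lies above that line, and MAGEC1, MAGEC2, MAGEC3 and, by less than 0.01, MAGEA1 show no overlap between the groups.

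The remaining X-linked families showed small differences. CTAG2, which encodes the tumour antigen LAGE-1, a close copy of NY-ESO-1, read 9.48, 9.17 and 9.24 in the knockdown and 9.13, 9.09 and 9.26 in control, with overlap. Its shared probe sets with CTAG1A and CTAG1B, a pair with identical values, gave a difference of 0.03. PAGE1 and PAGE4 were at -0.07 ± 0.07 and -0.07 ± 0.11 (SE). GAGE1 was read only by a probe set that names 12 GAGE genes, at 10.01, 9.47 and 9.76 in the knockdown and 9.49, 9.59 and 9.67 in control, so that the knockdown arrays spanned the control range on both sides.

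The 18 autosomal genes measured singly had differences from -0.27 to 0.23, and none passed the test (limma), in either direction, with 3 at an unadjusted p under 0.05 (MAEL, SPO11 and TDRKH). With array weights 3 of the 18 passed (16.7%, against 18.1% of all genes and 13.7% of the dim genes). Their differences in that fit were 0.20 for PIWIL1, -0.38 for MAEL and -0.21 for TDRKH. The lowest difference was that of MAEL, a factor of the piRNA pathway, which silences transposons in germ cells. MAEL read 6.55, 6.65 and 6.36 in the knockdown and 6.60, 6.89 and 6.87 in control, with overlap, a difference of -0.27 ± 0.10 (SE; limma, adjusted p = 0.204).

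TDRKH, a Tudor domain scaffold of the same pathway, read 8.45, 8.65 and 8.56 in the knockdown and 8.74, 8.78 and 8.89 in control. The knockdown values all lay below control, with a difference of -0.25 ± 0.07 (SE; limma, adjusted p = 0.112). The piRNA-binding Argonaute genes PIWIL1 and PIWIL2 were at 0.13 ± 0.08 and 0.12 ± 0.07 (SE), and the Tudor gene TDRD1 at 0.09 ± 0.07 (SE), all 3 dim with overlapping groups.

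The meiosis genes were all dim, from HORMAD1 at the 0.567 percentile to STAG3 at 22.7. SPO11, which makes the double-strand breaks of meiosis, read 4.64, 4.23 and 4.36 in the knockdown and 4.18, 4.21 and 4.15 in control. The groups did not overlap, but knockdown replicate 1 lay highest, and without it the difference was 0.12 in place of 0.23 ± 0.10 (SE; limma, adjusted p = 0.256). The synaptonemal complex genes SYCP1 and SYCP3 (0.05 and -0.03), the axis gene HORMAD1 (-0.10), the meiotic cohesin gene STAG3 (-0.03) and the recombinase gene DMC1 (-0.05) had adjusted p from 0.573 to 0.908. A probe set that STAG3 shares with 4 STAG3-like loci, at the 75.8 percentile, read 10.43, 10.37 and 10.30 in the knockdown and 10.24, 10.18 and 10.00 in control. Its groups did not overlap, with a difference of 0.23 and no test, and which of the 5 loci gave the signal was not tested. TEX14, a component of the bridges between germ cells, was at -0.10 ± 0.07 (SE).

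The germ cell RNA-binding genes DAZL and DDX4 were at -0.02 ± 0.09 and -0.05 ± 0.06 (SE). DDX4, a helicase and the standard germ cell marker, had all knockdown values below control, by a margin of under 0.01. TEX101, a sperm surface protein gene, read 6.39, 5.95 and 5.77 in the knockdown and 5.85, 5.79 and 5.78 in control, and its difference of 0.23 ± 0.14 was 0.05 without knockdown replicate 1. BRDT, the testis bromodomain gene, was at 0.10 ± 0.08, and PRAME, a substrate receptor of a cullin ubiquitin ligase, at -0.02 ± 0.07 (SE). CTCFL, a testis copy of CTCF, was at 0.08 ± 0.14 (SE) on its brighter probe set and 0.01 on the other. A probe set that names CTCFL, SP100 and HMGB1 was at 0.10, with all knockdown values above control. SOHLH2, a transcription factor of early germ cells, shares its probe set with a readthrough gene and was at -0.09.

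**Figure D5:**
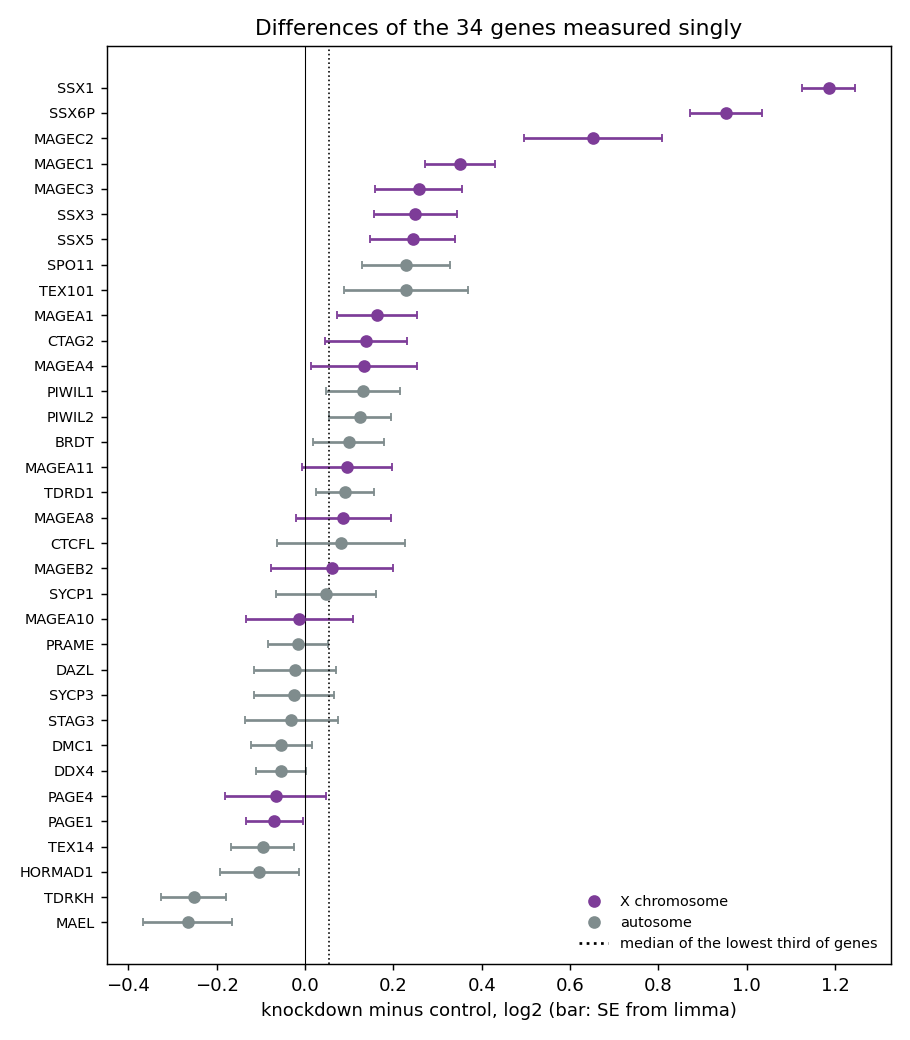
Knockdown minus control in log2 units with SE from limma for the 34 genes measured singly, X-linked genes in purple and autosomal genes in grey, with the median of the dim genes (0.05) as a dotted line. SSX1, SSX6P and the 3 MAGEC genes are the 5 highest, and MAEL and TDRKH the lowest.

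Counted over the 34 genes, 2 were called higher (SSX1 and SSX6P), none lower, and 32 did not pass at an adjusted p of 0.05 in the limma fit over all genes, where 1.28% of genes were called higher, 1.78% lower and 3.05% in all. Among the dim genes 0.7% were called higher, 0.505% lower and 1.21% in all. Since the values of those 2 genes were known when the genes were chosen, nothing is read from that count. Among the 30 genes other than SSX, no gene passed (limma) and 6 had an unadjusted p under 0.05, against 19.4% of all genes and 12.3% of the dim genes. With array weights 6 of the 30 passed (20.0%), against 18.1% of all genes and 13.7% of the dim genes. That share lay near the one over all genes and above the one over the dim genes. Of the 6, MAGEC1, MAGEC2, MAGEC3 and PIWIL1 were higher, beside 9.33% of all genes and 9.86% of the dim genes, and MAEL and TDRKH lower, beside 8.74% and 3.81%. Knockdown values all lay above control in 7 of the 34 (SSX1, SSX6P, MAGEC1, MAGEC2, MAGEC3, MAGEA1 and SPO11) and all below in 2 (TDRKH and DDX4), beside 14.3% and 12.7% of all genes and 10.5% and 4.38% of the dim genes. The median difference of the 34 was 0.09, against 0.03 over all genes and 0.05 over the dim genes. SSX1 and SSX6P, selected on this contrast, are in that median and in the count of 7. The median was 0.07 over the 30 genes other than SSX and 0.05 over the 27 that are neither SSX nor MAGEC.

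The genes were also split by chromosome, as a description. Of 16 X-linked genes, 13 were above 0, with a median of 0.15, and of 18 autosomal genes 8 were above 0, with a median of -0.02. The 16 include the 4 SSX genes, all above 0, of which SSX1 and SSX6P were selected on this contrast. Of the 30 members other than SSX, on any chromosome, 17 were above 0, with a median of 0.07. Over all genes 59.6% were above 0, and over the dim genes 68.6%. Of the X-linked genes 12 were dim, and of the autosomal genes 16. The 2 medians were not tested against each other because the genes were chosen with these values known.

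One array stood out among dim genes. Knockdown replicate 1 held the highest value in 15 of the 34 genes (44.1%), in 43.4% of the dim genes and in 31.9% of all genes. The members' median deviation from the mean of the 6 arrays was 0.13 on that array, against 0.09 for the dim genes. Without knockdown replicate 1 the median difference of the 34 genes was 0.05. SSX1, SSX6P, MAGEC2 and MAGEA1 were highest on knockdown replicate 3 and not on this array, and MAGEC1 and MAGEC3 were highest on it. The part of this array in the small positive differences of the other dim genes was not tested.

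A wider list of 109 other cancer-testis and germline genes, of which 80 were measured singly, had no gene that passed (limma), with 10 (12.5%) at an unadjusted p under 0.05, against 19.4% of all genes and 12.3% of the dim genes. Its median was 0.05, with 51 genes above 0 and 71 dim. The 2 with the lowest adjusted p were SYCP2, a synaptonemal complex gene (-0.36 ± 0.08, adjusted p = 0.0594), and TEX11, an X-linked meiosis gene (0.32 ± 0.08, SE, 0.0731). SYCP2 read 5.37, 5.33 and 5.49 in the knockdown and 5.73, 5.65 and 5.91 in control, and was the 1 gene of the list to pass after quantile normalization. With array weights 9 of the 80 were called higher and 4 lower, 16.2% in all against 18.1% of all genes and 13.7% of the dim genes. The list's share thus lay below that over all genes and above that over the dim genes, to which most of the list belongs.

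Genes of H3K9 and DNA methylation, a list that also holds the TET genes, which remove DNA methylation, and of PRC1.6 were mostly not dim, with 3 dim genes of 23 and 0 of 12. Of the 23 genes of H3K9 and DNA methylation, EHMT2 fell and 22 did not pass, with a median of 0.02. An unadjusted p under 0.05 was found for 6 of the 23 (26.1%), the targeted gene EHMT2 included, against 19.4% of all genes. EHMT1, the partner of G9a in its complex, read 9.44, 9.49 and 9.47 in the knockdown and 9.25, 9.25 and 9.30 in control, a difference of 0.20 ± 0.06 (SE; limma, adjusted p = 0.101), and passed with the dim genes left out and with array weights. The groups of EHMT1 did not overlap. DNMT3B, a DNA methyltransferase gene, read 8.86, 8.93 and 8.82 in the knockdown and 9.05, 9.05 and 9.24 in control. It was lower in the knockdown without overlap, by -0.24 ± 0.07 (SE; limma, adjusted p = 0.124). None of 12 genes of the polycomb complex PRC1.6, which recruits silencing to germline genes through E2F6 and MGA in mouse cells, passed (limma), with 1 at an unadjusted p under 0.05 and a median of 0.03.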

How the data were processed

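The deposited log2 values, 1 per probe set and array, came from the authors already summarised and scaled, by a method that the sources used here do not name. Their log base was inferred from the range, and array medians lay between 7.79 and 7.86. The annotation gave 1 symbol to 19460 of the 33297 probe sets and several to 1754, and it did not list 12083. Symbols were updated through the Entrez number against RefSeq (GRCh38.p14), where 19429 were found, and the probe set with the highest mean stood for each gene. Each of 18417 genes went into 1 fit with limma 3.58.1 (R 4.3.3), knockdown minus control, two-sided, with Benjamini-Hochberg adjustment over all genes. Arrays have no depth, and 3 per group limit the precision. The genes named are the 40 chosen genes, EHMT2, the SSX neighbours and shared probe sets, and list members that passed. Further genes (EHMT1, DNMT3B, SPANXB1, SYCP2 and TEX11) were chosen after their values were seen. So were SSX7, the MAGEB genes not among the 40 and, among the markers, PECAM1 and DCN. The members and lists were chosen with earlier results of these data known. The code of the fit was checked on simulated arrays with independent noise of the same spread on every array. The arrays here had unequal weights, so that check does not cover their errors, and no result rests on it. Alternatives were quantile normalization, median centring, leaving out the dim genes, a variance trend, array weights, the mean of a gene's probe sets, every single-gene probe set tested, a replicate block and leaving out each array.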

Additional observations from a re-analysis of the deposited data

How the results depend on the processing

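The median difference of the 34 genes (0.09) ranged from 0.05 without knockdown replicate 1 to 0.13 without control replicate 3. The number of genes called, 562, was 972 with the dim genes left out, 1083 with a variance trend, 3328 with array weights and 217 with the replicate block, and ran from 44 (without knockdown replicate 3) to 535 (without control replicate 3) with 1 array left out. The labels do not say whether same-numbered arrays were paired. Their correlations of deviations were -0.25, 0.12 and 0.09, which cannot settle it because differently numbered arrays were not compared. With the replicate block SPANXB1 (limma, adjusted p = 0.0711) and CDH5 (0.0649) missed the threshold. With array weights 18.1% of all genes were called, beside 8 of the 34 members (2 of them SSX1 and SSX6P, selected on this contrast), 13 of 80 genes of the wider germline list and 5 of 23 of H3K9 and DNA methylation. Quantile normalization called 1 gene of the wider list, and leaving out the dim genes called 2 of H3K9 and DNA methylation, a count that ran from 0 to 2 with 1 array left out. Members near 0 changed sign. With array weights DAZL was at 0.11, STAG3 at 0.13 and HORMAD1 at 0.020. With 1 array left out MAGEA8 ran from -0.0085 to 0.20, MAGEA10 from -0.14 to 0.055, MAGEA11 from -6.5e-04 to 0.20, MAGEB2 from -0.044 to 0.21, PAGE4 from -0.14 to 0.036, PRAME from -0.055 to 0.033, DAZL from -0.082 to 0.052, SYCP1 from -0.046 to 0.16, SYCP3 from -0.10 to 0.070, STAG3 from -0.12 to 0.064 and CTCFL from -0.032 to 0.26. The cause of these changes was not tested. Without a detection call, differences of the 28 dim genes cannot be separated from background.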
